A study of Mus musculus with 6 samples.

Results

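The 44 mouse genes that encode collagen alpha chains were followed in lung tumors from mice given tamoxifen or corn oil. They were taken by name, as every gene on the array called Col, a number, a and a number, and make up 44 of the 36870 gene names measured. They are covered by 92 probes, and the brightest probe stood for a gene. A collagen molecule is a triple helix of alpha chains, each a long repeat with glycine recurring every 3 residues. Fibrillar collagens such as I, III and V give tissue its tensile strength, collagen IV forms the network of basement membranes, and collagen VI builds beaded filaments around cells. In the lung, interstitial fibroblasts are the main source of collagens I, III and VI, while alveolar epithelium and endothelium lie on collagen IV.

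All mice were C57BL/6J and carried floxed alleles of Ror1 (Ror1f/f), CAG-CreER and SPC-hEGFRdel746-750, so the oil group had the same alleles as the tamoxifen group. Treatment ran from 16 to 20 weeks of age, and the lung tumor was taken at 20 weeks. CreER is a recombinase that tamoxifen switches on, here under a promoter active in most cell types, and SPC is the promoter of surfactant protein C, which directs the mutant human EGFR to alveolar type 2 cells. The series title names the loss of Ror1, a Wnt5a receptor, in lung adenocarcinoma as the question. Tamoxifen itself and recombination cannot be told apart in this design. Oil and tamoxifen samples that share a number from 1 to 3 were hybridised together, once in each dye orientation, giving 6 arrays in 3 couples. Whether each number is an animal of its own is not in the labels, so p-values measure only the spread between these samples.

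Per array and channel, 51.8% to 58.8% of the probes stood well above background, and 0 spots were saturated. Ratios from the dye-swapped arrays of 1 couple correlated across the tested genes with r of 0.76, 0.77 and 0.79, and across the tested collagen chains with r of 0.92, 0.88 and 0.94 in couples 1, 2 and 3, where genes are not independent replicates. Ror1 had log2 ratios of tamoxifen over oil of 0.58, 0.44 and 0.18 in the 3 couples (mean 0.40, limma adjusted p = 0.69). This goes against the direction of a deleted gene, and the labels do not give the floxed exon, so the probe does not check the deletion. Every direction given here is that of the samples labelled tamoxifen relative to those labelled oil. Of the alveolar type 2 markers, 9 of 9 were well above background in enough couples to be tested. These markers bear on the lung origin of the samples and do not tell tumor from other lung, so the tumor label was not checked.

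The repeat that defines the family could be read in the probes themselves. In the strand of the mRNA, a glycine codon starts with GG, so a coding stretch of the triple helix has GG every 9 bases. This pattern, in a reading frame with no stop, was held by 4 of the 92 collagen probes (4.35%) and by 9 of all 56605 probes (0.0159%). The 4 probes are shown because they alone lie in the helix-coding part by this criterion, and the capitals mark the glycine codons.
Col6a3: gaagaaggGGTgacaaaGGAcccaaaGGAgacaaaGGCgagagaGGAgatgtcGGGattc
Col15a1: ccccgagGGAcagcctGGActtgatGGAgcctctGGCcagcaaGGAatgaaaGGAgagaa
Col5a3: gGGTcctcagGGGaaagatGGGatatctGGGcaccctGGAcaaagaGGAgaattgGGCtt
Col11a2: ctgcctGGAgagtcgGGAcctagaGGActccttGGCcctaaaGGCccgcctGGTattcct
Their positions on mouse build mm9 are chr1:92689602-92690594 (minus strand) for Col6a3, chr4:47283786-47283845 (plus) for Col15a1, chr9:20590066-20590795 (minus) for Col5a3 and chr17:34189287-34189453 (plus) for Col11a2. The probes of Col5a3 and Col11a2 shown here were well above background in 0 of 12 readings, and other probes stood for these genes. The Col15a1 probe stood for its gene.

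The Col6a1 probe, which gave the lowest ratio of the family, is of another kind. It lies at chr10:76171538-76171597 on the minus strand (mm9), and its bases 26 to 55 hold the polyadenylation hexamer AATAAA, in capitals.
Col6a1: gccagctatctctgctAATAAAggtttcca
The hexamer was held by 9 of the 92 collagen probes (9.78%) and by 9.77% of all probes, searched on the probe strand alone.

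Of the 44 chains, 30 were well above background in enough couples to be tested, 25 of them in all 12 readings. The other 14 are accounted for here. Col11a1, Col24a1 (fibrillar), Col6a5, Col6a6, Col9a1, Col9a3, Col19a1 and Col25a1 were not well above background in any reading by any of their probes. Col9a1 and Col9a3 form collagen IX of cartilage with Col9a2, which was tested. Col17a1, the transmembrane collagen of hemidesmosomes, and Col26a1 each reached that mark in 3 of 6 readings of tamoxifen and 4 of 6 readings of oil. Col8a2, a partner of Col8a1, reached 2 tamoxifen and 4 oil readings. Col22a1 reached 1 of each by its brightest probe, and another of its probes reached 1 oil reading. Col28a1 was well above background in 1 oil reading and in 0 tamoxifen readings. Col6a4 was so in 2 tamoxifen readings and 0 oil readings. So few readings set no bound on a fold for either chain, and none is given.

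No collagen chain passed an adjusted p of 0.05 in limma, and neither did any other gene: 0 of 20475 genes were called (0%). At an unadjusted p under 0.05, 5 of the 30 chains were lower in tamoxifen (16.7%, against 822 or 4.01% of all tested genes) and 1 was higher (3.33%, against 614 or 3% of all). The 5 were Col6a1, Col6a2, Col23a1, Col16a1 and Col1a2, and the 1 was Col14a1. With single arrays as observations and the couple as a random block, limma called 56 genes, 3 of them chains, and 9 genes, 1 of them a chain, with a dye term added. The 2 arrays of a couple hold the same samples, so these counts rest on repeated measurements of 3 couples. The mean log2 ratio lay below 0 for 22 of the 30 chains (73.3%, against 51.2% of all genes). The median chain was at -0.12, and the median gene at -0.0039. That offset of the family was not shared by all couples: the median of the 30 chains was -0.14 in couple 1, -0.16 in couple 2 and 0.03 in couple 3. The chains also varied more between couples than the typical gene, with a median SD of 0.27 against 0.17. Of the 30 chains, 7 (23.3%) were below 0 on all 6 arrays, which held for 7.21% of all genes. They were Col6a1, Col6a2, Col23a1, Col16a1, Col1a2, Col3a1 and Col1a1. Other probes of Col3a1 and Col1a1 that passed the filter did not share this sign on all 6 arrays. Only Col14a1 among the 30 (3.33%) was above 0 on all 6 arrays, against 6.04% of all genes. The 3 chains that were at least 1.5-fold lower and below 0 on all 6 arrays were 10% of those tested, against 0.635% of all genes. No chain was 1.5-fold higher and above 0 on all 6 (0.347% of all genes).

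**Figure D1:**
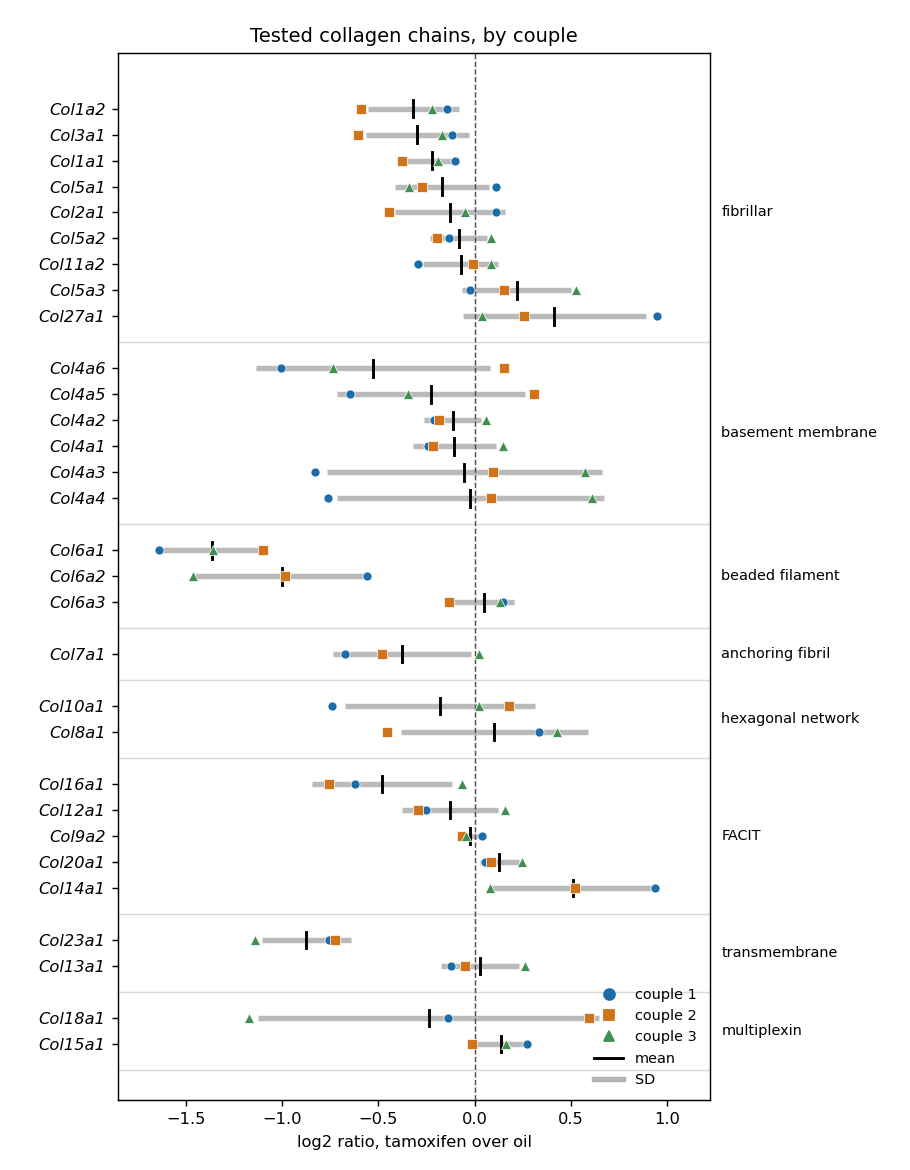
The log2 ratio of tamoxifen over oil of the 30 tested chains, by structural class, with 1 symbol per couple, the mean as a black bar and the SD over the 3 couples as a grey bar. Col6a1, Col6a2 and Col23a1 lie furthest to the left, and Col6a3 lies at 0.05.

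The lowest ratios were those of collagen VI, and they were unequal among its chains. Collagen VI is a heterotrimer of the products of Col6a1, Col6a2 and Col6a3, whose tetramers join end to end into beaded microfibrils at the edge of basement membranes. The Col6a1 probe had a normalized log2 signal of 10.86, 11.57 and 11.66 in tamoxifen samples 1, 2 and 3, and of 12.49, 12.67 and 13.02 in the oil samples. Every tamoxifen sample was below every oil sample. On single arrays, the ratios of couples 1, 2 and 3 were -1.70, -1.15 and -1.36 where Cy5 marked tamoxifen and -1.57, -1.05 and -1.36 where Cy3 did. The mean over couples was -1.37 ± 0.27 (SD, n = 3 couples), 2.58-fold lower in tamoxifen (limma unadjusted p = 1.69e-04, adjusted p = 0.52). Taking the 6 arrays as observations with the couple as a random block gave an adjusted p of 0.0049, and 0.014 with a dye term added. The 2 arrays of a couple hold the same samples, and this fit gave all genes 1 shared correlation. Where the dye-swapped ratios of a gene nearly repeat, as here, such p-values can be too small. Over all alternatives the adjusted p of Col6a1 ranged from 0.0049 to 0.96.

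Col6a2 had a log2 signal of 7.40, 7.41 and 7.53 in the tamoxifen samples and of 7.96, 8.39 and 8.99 in the oil samples. The tamoxifen samples lay close together and below all oil samples, which were spread over a wider range. By array the ratios were -0.58, -0.98 and -1.54 where Cy5 marked tamoxifen and -0.54, -0.99 and -1.38 where Cy3 did. The mean was -1.002 ± 0.45 (SD, n = 3 couples), 2.002-fold lower (limma adjusted p = 0.69). With the couple as a random block over 6 arrays the adjusted p was 0.040, and 0.086 with a dye term. The limit given for Col6a1 holds here too, as the dye-swapped ratios were close. Over all alternatives the adjusted p of Col6a2 ranged from 0.04 to 0.96. Col6a2 lies beside Col6a1 on chromosome 10, and this probe is at chr10:76058931-76058990 (mm9, minus strand). The other probes of Col6a2 that passed, 2098 and 5576 bases away, gave means of -0.49 and -0.44, in the same direction. They were dimmer, with mean log2 signals of 6.98 and 6.92 against 7.95. The offset pulls the ratios of dim probes toward 0, so the sizes are not directly comparable. By the scanner software's log ratio the brightest probe was at -1.38. Averaging the 3 probes gave -0.64.

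Col6a3, on chromosome 1, encodes the longest chain of the trimer. Its log2 signal was 10.62, 10.58 and 10.10 in the tamoxifen samples and 10.48, 10.71 and 9.97 in the oil samples. The groups overlapped. The couples were at 0.14, -0.13 and 0.13, with a mean of 0.05 ± 0.16 (limma adjusted p = 0.92). All 3 Col6a3 probes, 1 of them the helix probe shown above, had means between 0.01 and 0.05. With tamoxifen in Cy5 alone the mean of the brightest probe turned to -0.13, and without couple 1 it was -0.0016.

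Within couples the log2 ratio of Col6a1 lay below that of Col6a3 by -1.78, -0.97 and -1.49, a mean difference of -1.41 ± 0.41 (SD, n = 3). For Col6a2 minus Col6a3 the differences were -0.70, -0.85 and -1.59, a mean of -1.05 ± 0.48. Both had an exact two-sided sign-flip p of 0.25, the smallest that 3 couples allow, and 0.63 after Benjamini-Hochberg adjustment over the 10 pairs of partner chains compared. Col6a1 and Col6a2 differed by -0.36 ± 0.63 (exact p = 0.50), with opposite order in couples 1 and 3. That difference was 0.014 by the scanner software's log ratio, -0.72 with the passing probes of a gene averaged and -0.0066 without couple 1. The ratios of Col6a1 and Col6a2 were thus below that of Col6a3 in each couple, and their order against each other varied.

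**Figure D2:**
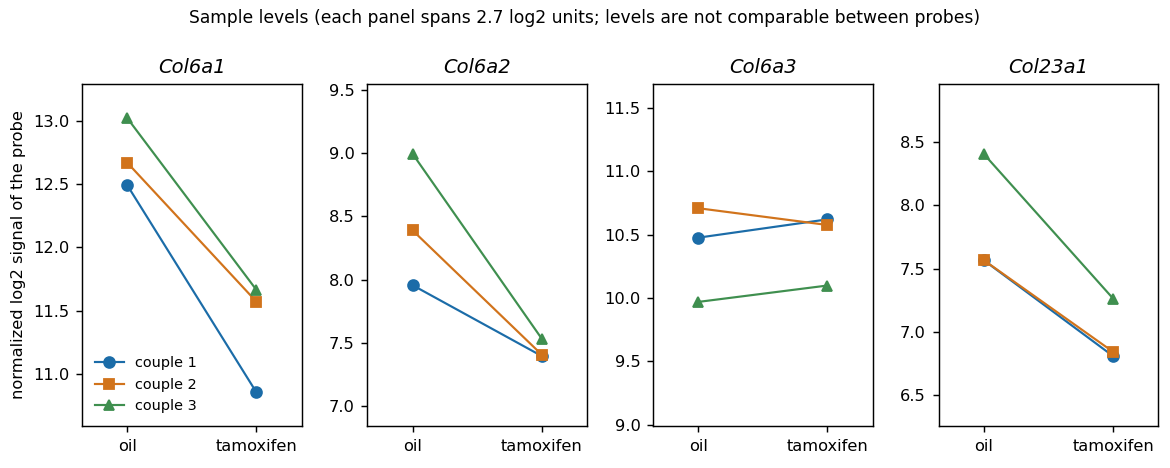
Normalized log2 signal of the brightest probe of Col6a1, Col6a2, Col6a3 and Col23a1 in the oil and tamoxifen samples, with the 2 samples of a couple joined by a line. All 3 lines go down for Col6a1, Col6a2 and Col23a1, and those of Col6a3 go both ways. Signals of different probes are not comparable.

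Genes next to the collagen VI pair on chromosome 10 were also looked at. Between Col6a2 and Col18a1 in the reference gene order, 2 genes other than collagens were tested: Pcbp3, an RNA-binding protein, had a mean of 0.05, and Slc19a1, the reduced folate carrier, a mean of 0.25. Neither mean lay below 0, though Pcbp3 was at -0.16 in couple 1 and Slc19a1 at -0.012 in couple 2. Col18a1 itself, which encodes the chain whose fragment is endostatin, was among the most variable genes, with an SD in the 98th percentile of all tested genes. Its log2 signal was 14.66, 14.60 and 14.03 in tamoxifen and 14.80, 14.00 and 15.20 in oil. The couples were at -0.14, 0.59 and -1.17, so they did not share a direction, and the mean was -0.24 ± 0.89 (limma adjusted p = 0.88).

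Col23a1, a transmembrane collagen that is shed from the cell surface, had the lowest ratio outside collagen VI. Its log2 signal was 6.81, 6.84 and 7.26 in the tamoxifen samples and 7.57, 7.57 and 8.41 in the oil samples. The groups did not overlap. By array its ratios were -0.91, -0.79 and -1.21 where Cy5 marked tamoxifen and -0.60, -0.66 and -1.07 where Cy3 did. The mean was -0.87 ± 0.23 (SD, n = 3 couples), 1.83-fold lower (limma unadjusted p = 8.31e-04, adjusted p = 0.67). With the couple as a random block the adjusted p was 0.038, and 0.061 with a dye term. Over all alternatives the adjusted p of Col23a1 ranged from 0.038 to 0.96. The other probe that passed, 2720 bases away, gave -0.76 ± 0.43. The brightest probe is itself dim, and the scanner software's own log ratio, which has no offset, put the mean of that probe at -1.52. Non-overlap in this direction held for Col6a1, Col6a2 and Col23a1, 3 of 30 chains (10%, against 7.14% of all genes), and in the other direction for Col20a1 alone (3.33%, against 5.2%). The Col20a1 separation was slight, with the lowest tamoxifen sample at 6.836 and the highest oil sample at 6.833. Its ratio was below 0 on 2 of 6 arrays. In bulk tumor, fewer cells of a type and less RNA per cell cannot be told apart.

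The main fibrillar chains had small ratios below 0. Col1a1 and Col1a2 encode the chains of collagen I, and Col3a1 the single chain of collagen III, which forms mixed fibrils with collagen I. Col1a1 had a log2 signal of 12.06, 12.18 and 11.69 in tamoxifen and 12.16, 12.56 and 11.87 in oil, and the groups overlapped. Its couples were at -0.10, -0.38 and -0.19, with a mean of -0.22 ± 0.14 (limma adjusted p = 0.69). Col1a2 was at -0.15, -0.59 and -0.22, with a mean of -0.32 ± 0.24, and Col3a1 at -0.12, -0.60 and -0.17, with a mean of -0.30 ± 0.27 (adjusted p = 0.69 for each). In each of these chains couple 2 had the lowest ratio. Without couple 2, Col1a1 was at -0.15, Col1a2 at -0.18 and Col3a1 at -0.14. The difference of Col1a1 and Col1a2, which share a trimer, was 0.10 ± 0.10 (exact p = 0.25). Among the other probes of Col1a1, a pair that overlap each other by 20 bases had means of -0.20 and -0.14, each with couple 1 above 0. These probes have 10 spots each and mean log2 signals of 11.74 and 11.62, against 1 spot and 12.09 for the brightest.

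The remaining fibrillar chains went both ways. Collagen V, which sets the diameter of collagen I fibrils, had Col5a1 at 0.11, -0.27 and -0.34 (mean -0.17 ± 0.24), Col5a2 at -0.13, -0.20 and 0.08 (mean -0.08 ± 0.15) and Col5a3 at -0.03, 0.15 and 0.53 (mean 0.22 ± 0.28). The difference of Col5a1 and Col5a3 was -0.39 ± 0.50 and that of Col5a1 and Col5a2 was -0.09 ± 0.34 (exact p = 0.50 and 0.75). Col2a1, the chain of cartilage collagen II, was at -0.13 ± 0.29, and Col11a2 at -0.07 ± 0.20. Col11a2 had 5 tamoxifen and 3 oil readings well above background, so only tamoxifen carried it past the filter. Col27a1, well above background in 4 tamoxifen and 2 oil readings, also passed the filter only through tamoxifen. Its couples were at 0.95, 0.25 and 0.04, with a mean of 0.41 ± 0.48 that rests on an oil signal mostly not well above background. Without couple 1 it was 0.15, and by the scanner software's log ratio 1.23. Over the 9 tested fibrillar chains, 7 lay below 0, with a median of -0.13 and couple medians of -0.10, -0.27 and -0.05.

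Col2a1, Col9a2, Col10a1 and Col11a2 are known from cartilage. Of 7 cartilage markers, Acan, Matn1, Matn3 and Cnmd, which include defining matrix proteins, were not well above background in any reading, Comp was so in 1, and Sox9 and Hapln1 were tested. The mean log2 signal of the 2 tested markers ranged from 8.34 to 9.08 in tamoxifen and from 7.98 to 8.79 in oil.

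The collagen IV chains were compared within pairs of neighbouring genes. They are encoded head to head as Col4a1 with Col4a2, Col4a3 with Col4a4 and Col4a5 with Col4a6, each pair read in opposite directions from neighbouring starts. In RefSeq on build GRCm38.p6 the first bases of Col4a2 (plus strand) and Col4a1 (minus strand) overlap by 22 bases, at chr8:11312805-11312826. This stretch is shown because both transcripts begin at its edges, and it is given on the plus strand.
Col4a1 and Col4a2: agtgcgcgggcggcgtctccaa
The Col4a6 and Col4a5 starts lie 1342 bases apart on chromosome X in the same table. For Col4a4, the 60 bases before its start, toward Col4a3, are at chr1:82586850-82586909 (GRCm38.p6, minus strand).
Col4a4: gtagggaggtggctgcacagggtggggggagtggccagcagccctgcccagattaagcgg
RefSeq promoter entries matched 35 of the 44 chains. Col4a3 had none.

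Col4a1 and Col4a2 make the collagen IV of nearly all basement membranes. Col4a1 had a log2 signal of 13.15, 13.17 and 13.04 in tamoxifen and 13.39, 13.38 and 12.89 in oil, and Col4a2 had 12.58, 12.54 and 12.42 against 12.79, 12.73 and 12.36. Both groups overlapped, as couple 3 was on the other side of 0. Col4a1 was at -0.24, -0.22 and 0.15 (mean -0.11 ± 0.22) and Col4a2 at -0.21, -0.19 and 0.06 (mean -0.11 ± 0.15). The difference between these partners was 0.01 ± 0.07 (exact p = 1).

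Col4a3 and Col4a4 form, with Col4a5, the network of the alveolar and glomerular basement membranes. Col4a3 had a log2 signal of 7.74, 8.29 and 8.503 in tamoxifen and 8.56, 8.19 and 7.93 in oil. Col4a4 had 9.15, 9.62 and 9.87 in tamoxifen and 9.91, 9.53 and 9.26 in oil. The couples were at -0.83, 0.09 and 0.57 for Col4a3 and at -0.76, 0.09 and 0.61 for Col4a4, so each gene ran from the lowest couple to the highest over more than 1 log2 unit while the partners stayed together. The means were -0.05 ± 0.71 and -0.02 ± 0.69, and their difference was -0.03 ± 0.04 (exact p = 0.50). This closeness was that of the average over dyes: with tamoxifen in Cy5 the difference was -0.34, and with tamoxifen in Cy3 it was 0.27. The other Col4a4 probe, 3000 bases away, had couples at -0.39, 0.19 and 0.40 and a mean of 0.07 ± 0.41. Col4a5 was on the other side of 0 in couple 3, and Col4a4 minus Col4a5 was 0.21 ± 0.65 (exact p = 1). Alveolar type 1 cell markers had couple medians of -0.23, 0.06 and 0.38, the same order as Col4a3 and Col4a4. That order was also found in endothelial markers (-0.16, 0.11 and 0.25), fibroblast markers (-0.20, -0.02 and 0.04) and smooth muscle markers (-0.132, -0.128 and 0.03). The mean log2 signal of the alveolar type 1 markers was 11.82 to 12.25 in tamoxifen and 11.91 to 12.24 in oil, with 6 of 6 tested. The part of any of these lists in the result was not tested.

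Col4a5 and Col4a6 lie on chromosome X. Col4a5 was at -0.65, 0.31 and -0.35 (mean -0.23 ± 0.49, limma adjusted p = 0.80), and Col4a6 at -1.005, 0.15 and -0.74 (mean -0.53 ± 0.61, adjusted p = 0.69). The order of the couples was the same in both, and Col4a5 was above Col4a6 in every couple, by 0.36, 0.15 and 0.39, a mean of 0.30 ± 0.13 (exact p = 0.25). This difference was 0.49 with an offset of 16 and 0.92 by the scanner software's log ratio, where the mean of Col4a6 was -1.16. Without couple 1 the means were -0.02 for Col4a5 and -0.29 for Col4a6, and without couple 2 they were -0.50 and -0.87. Xist, the RNA of the inactive X chromosome, had ratios of -2.13, 0.09 and 0.10, so couple 1 differed from the others there. The Y-linked Ddx3y had ratios of 1.10, 0.0027 and 0.33, opposite in couple 1 to Xist, and the Y-linked Kdm5d had -0.08, 0.03 and -0.12. The part of this in the ratios of any chain, X-linked or not, was not tested. Over all 6 chains of collagen IV, 6 means lay below 0, with a median of -0.11 and couple medians of -0.70, 0.09 and 0.10.

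**Figure D3:**
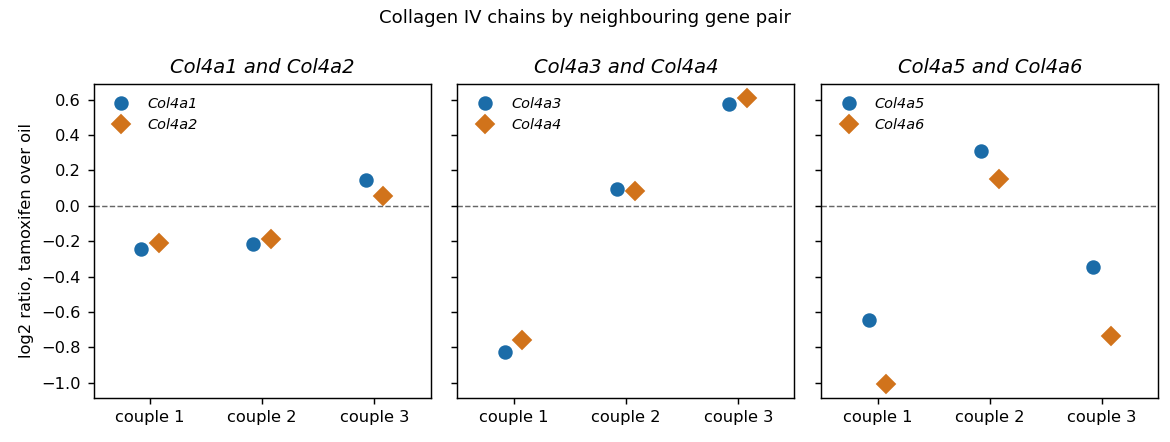
The log2 ratio of tamoxifen over oil of the collagen IV chains by couple, in 1 panel per neighbouring gene pair. The partners differ by 0.01 ± 0.07 and -0.03 ± 0.04 in the left and middle panels and by 0.30 ± 0.13 in the right panel (mean ± SD over couples), while the couples of Col4a3 and Col4a4 range from -0.83 to 0.61.

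Among the fibril-associated collagens, which coat fibrils and link them to other matrix, the lowest and the highest ratio belonged to Col16a1 and Col14a1. Col16a1 had a log2 signal of 9.92, 10.25 and 10.15 in tamoxifen and of 10.54, 11.01 and 10.21 in oil. The groups overlapped, since oil sample 3 lay below tamoxifen sample 2. Its couples were at -0.62, -0.76 and -0.07, with a mean of -0.48 ± 0.37 (limma adjusted p = 0.69). Col14a1 had 8.00, 6.98 and 6.44 in tamoxifen and 7.07, 6.46 and 6.36 in oil, and was above its oil partner in each couple although the groups overlapped. Its couples were at 0.94, 0.52 and 0.08, with a mean of 0.51 ± 0.43 (limma adjusted p = 0.69). It was well above background in 6 tamoxifen readings and in 4 of 6 oil readings. Without couple 1 its mean was 0.30, and by the scanner software's log ratio it was 1.19. Col12a1 was at -0.13 ± 0.25, Col9a2 at -0.03 ± 0.06 and Col20a1 at 0.13 ± 0.10, the last with couples at 0.05, 0.09 and 0.24 and a mean of 0.37 by the scanner software's log ratio.

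The remaining chains are of the anchoring fibril, hexagonal network, transmembrane and multiplexin classes. Col7a1, the anchoring fibril chain that ties basement membrane to stroma, had couples at -0.67, -0.48 and 0.02, with a mean of -0.38 ± 0.36 (limma adjusted p = 0.69). Without couple 1 it was -0.23. Col8a1, of the hexagonal networks under endothelium, was at 0.10 ± 0.48 with couple 2 below 0 at -0.45, and Col10a1, known from hypertrophic cartilage, at -0.18 ± 0.49 with couple 1 at -0.74. By the scanner software's log ratio Col10a1 was at -0.86, and without couple 1 it was at 0.10. Col10a1 had 4 tamoxifen and 6 oil readings well above background. Col13a1, a transmembrane collagen of cell adhesions, was at 0.03 ± 0.20. Col15a1, a relative of Col18a1 that bridges fibrils and basement membrane, was at 0.14 ± 0.14. It was at -0.0013 with tamoxifen in Cy5 alone and at 0.70 by the scanner software's log ratio, and had 6 tamoxifen and 4 oil readings well above background.

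Probes of the same gene gave a further view of these values. Of the 92 probes, 70 were designed to RefSeq mRNAs, of which 37 passed the filter, and 21 to Ensembl transcripts, of which 7 passed. In all, 36 probes were not well above background in any reading. In 11 genes more than 1 probe passed, and in 10 of them the probe means had the same sign. The exception was Col4a4. Col27a1 is among the 10, and both of its probes passed only through tamoxifen. The median spread between the lowest and the highest probe mean of a gene was 0.11, and that of Col6a2 was the widest of the 11 at 0.56. The Col6a2 probes with the smaller ratios were its dimmer ones. The dimmer of the Col3a1 probes, to an Ensembl transcript, was at -0.02, against -0.30 for the brightest.

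**Figure D4:**
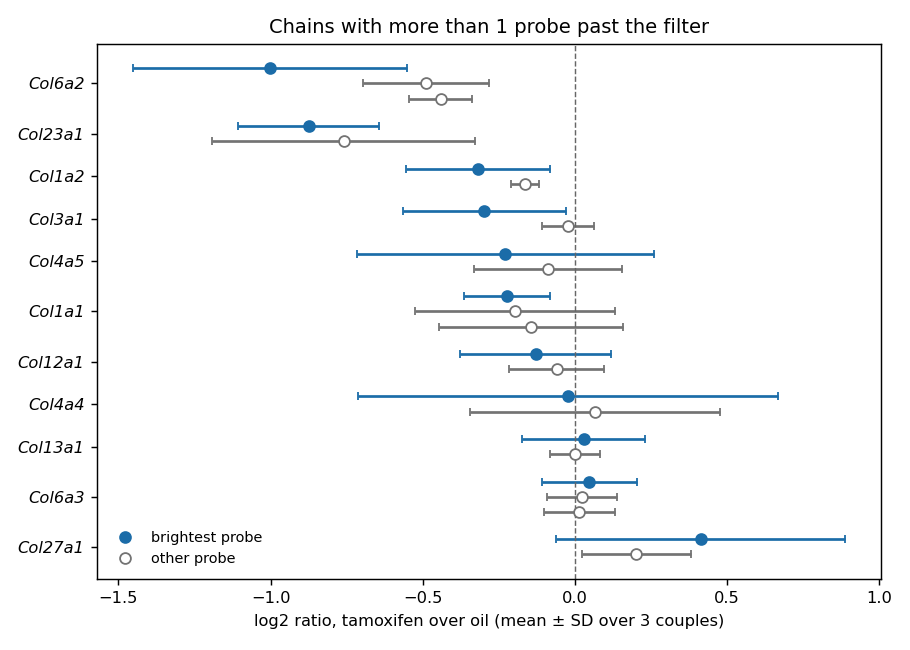
Mean log2 ratio of tamoxifen over oil with the SD over 3 couples, for each probe that passed the filter in the 11 chains with more than 1 such probe; filled points are the brightest probe. In 10 of the 11 chains all probe means lie on the same side of 0, and the Col6a2 probes lie between -1.002 and -0.44.

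Genes that modify, export, crosslink, bind and break down collagen lay on both sides of 0 in equal number. Of 60 such genes listed, 59 were found on the array and 54 were tested, and 27 means lay below 0 and 27 above. Their median was 0.0033, and 0 passed the test. At an unadjusted p under 0.05, 3 of the 54 were lower and 1 was higher, shares near the 4.01% and 3% of all tested genes. P4ha1, a catalytic subunit of the prolyl hydroxylase that stabilises the helix, was at -0.42 ± 0.21. Lox, which oxidises lysines to start crosslinks, had a log2 signal of 7.95, 8.54 and 8.46 in tamoxifen and 8.59, 9.13 and 9.11 in oil. Its couples were nearly equal at -0.64, -0.60 and -0.65, with a mean of -0.63 ± 0.03 (limma unadjusted p = 5.61e-04, adjusted p = 0.67). Mmp2, a gelatinase, was at -0.47 ± 0.19, and Fkbp10, a prolyl isomerase and collagen chaperone of the endoplasmic reticulum, at 0.36 ± 0.14 (limma adjusted p = 0.69 for P4ha1, Mmp2 and Fkbp10).

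By step, the medians were 0.02 over 14 genes of hydroxylation and glycosylation, -0.0044 over 7 of chaperones and export, 0.09 over 6 of propeptide cleavage and -0.17 over 4 of crosslinking. The fibril-bound proteoglycans (6 genes) had a median of 0.09, the receptors (11) of -0.11 and the breakdown genes (6) of -0.10. The 4 genes nearest 0 were Sec23a, of the coat that exports procollagen, at -0.0044, Lum, a fibril-bound proteoglycan, at -0.0058, Mmp13, a collagenase, at -0.0097 and P4ha3, another prolyl hydroxylase subunit, at 0.01. Each of these 4 changed sign in at least 1 other setting. Mmp13 (5 tamoxifen and 3 oil readings well above background) and P4ha3 (4 and 3) passed the filter only through tamoxifen. Both lay near background, where the offset pulls ratios toward 0, so their values do not show an unchanged gene.

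**Figure D5:**
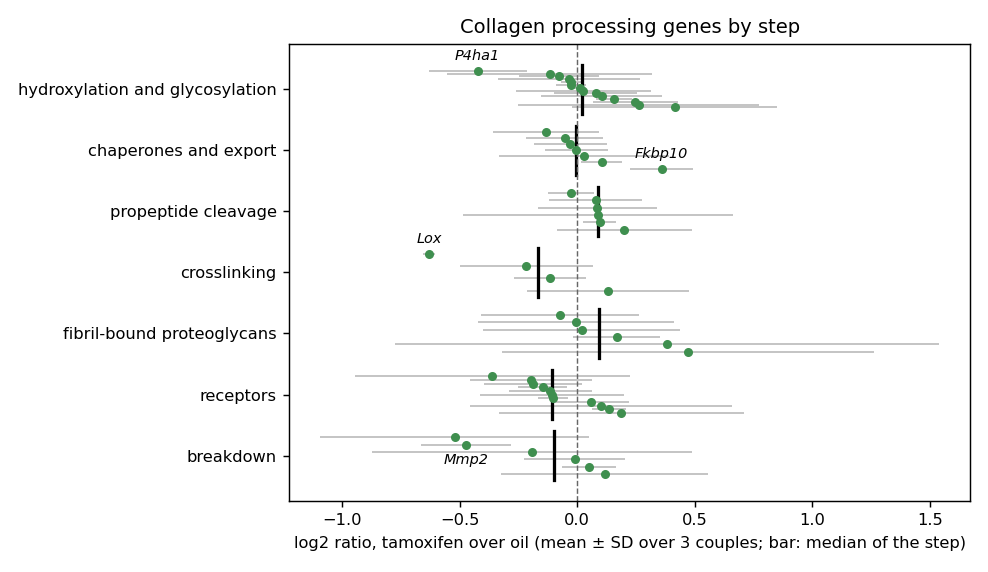
Mean log2 ratio of tamoxifen over oil with the SD over 3 couples for the 54 tested collagen processing genes, by step, with the median of each step as a black bar. Medians lie between -0.17 and 0.09, and Lox has the lowest mean at -0.63 with the SD of 0.03.

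Markers of cells that make or border on collagen are given beside these values. Of 14 fibroblast markers tested, 12 lay below 0, with a median of -0.07 and couple medians of -0.20, -0.02 and 0.04. Their mean log2 signal per sample ranged from 9.20 to 9.61 in tamoxifen and from 9.24 to 9.60 in oil, so the groups overlapped. All 6 tested smooth muscle markers lay below 0 (median -0.09, 9.48 to 9.68 against 9.54 to 9.82), and so did all 9 alveolar type 2 markers (median -0.26, 14.87 to 15.00 against 15.11 to 15.43). The ranges of the type 2 markers did not overlap. Of all tested genes, 51.2% lay below 0. At an unadjusted p under 0.05 in limma, 4 of the 9 type 2 markers were lower and 0 higher, against 4.01% and 3% of all genes. Of the 14 fibroblast markers, 1 was lower and 1 higher. No marker passed the adjusted threshold. The 6 endothelial markers lay above 0 (median 0.11, 9.24 to 9.42 against 9.003 to 9.29). The 3 tested of 5 mesothelial markers had a median of -0.28 (7.32 to 7.45 against 7.32 to 8.07), and the 6 heart muscle markers a median of -0.20 (7.20 to 7.36 against 7.40 to 7.84). In the heart list, Myl7 (3 tamoxifen and 6 oil readings well above background) and Tnni3 (3 and 5) passed the filter only through oil. The means of all 6 heart muscle markers lay below 0, and Myh6 varied widely, at -0.16, -2.54 and 0.52 in couples 1, 2 and 3. Whether heart muscle content differed between the groups was not tested. Of 6 skeletal muscle markers 1 was tested, at 0.14 (7.35 to 7.44 against 7.02 to 7.42), and Ckm, Myh1, Myh2 and Myod1 were not well above background in any reading. The 7 alveolar macrophage markers had a median of -0.52 and couple medians of -1.41, 0.75 and -0.65 (11.37 to 13.15 against 12.34 to 12.98). The part of any of these in the collagen ratios was not tested.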

How the data were processed

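Gene expression was measured in lung tumors on 6 arrays of 2 colours, in 3 couples of a tamoxifen and an oil sample. The deposited scanner files hold spot intensity in each channel, not normalized, and a log10 ratio made by the scanner software, which the submitters' processing notes name as Agilent Feature Extraction, version 12.0.3.1. Spot flags are 0 or 1, per the file headers. The authors' deposited value table holds Cy5 over Cy3 as log2, at a slope of 3.32 to 3.33 on the log10 ratio over 56305 probes. The medians of its columns for couples 1 to 3 were 0.14, -0.14 and -0.06 where Cy5 held tamoxifen and 0.13, -0.15 and -0.0055 where Cy5 held oil, so scale, direction and centring are those of the scanner software.

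From the intensities, limma 3.58.1 in R 4.3.3 ran normexp with an offset of 50 and loess within arrays, with control spots at weight 0 and flagged outlier spots left out (89 to 132 per array). The brightest probe stood for a gene and had to exceed background clearly on the 2 arrays of 2 or more couples, in either group. Ratios were turned to tamoxifen over oil, the dye-swapped arrays of a couple averaged, and 20475 genes tested against 0 with lmFit and eBayes, two-sided, with Benjamini-Hochberg adjustment and a threshold of 0.05. The couple is a pairing by shared hybridisation, per the labels. Levels are loess and Aquantile normalized log2 signals per channel. The offset pulls the ratios of dim probes toward 0. The number of arrays limits precision: over genes, the SE had a median of 0.098.

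Partner chains were compared by the exact sign-flip test over couples. Every chain matching the name is accounted for; the tested chains of collagens I, III, IV, V and VI, and those with the same sign on all 6 arrays and a mean of at least 0.3 in size, are given couple by couple, and of the processing genes those with an unadjusted p under 0.05 and the 4 nearest 0 are named; others were singled out after their values were seen. The chains and lists were chosen with earlier results of these data known. Probe positions are on mm9, with no exon annotation of that build used here. Ctage5 was not matched to an array name.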

Additional observations from a re-analysis of the deposited data

How the results depend on the processing

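The count of genes past an adjusted p of 0.05 was 0 among all genes and 0 among collagen chains in 12 of the 15 alternatives, including each couple left out in turn (lowest and highest 0), offset 16, median centring, the scanner software's log ratio, the deposited log2 table, other filters, all probes averaged and each dye orientation alone. At an unadjusted p under 0.05 in limma, 822 genes were lower and 614 higher. Fitting 6 arrays with a random effect of couple (the replicate block) called 56 genes and 3 chains, with a consensus correlation of 0.64. The 6 arrays measure the samples of 3 couples again in swapped dyes and add no new samples. The replicate block with a dye term, chosen after seeing the data, called 9 genes and 1 chain (correlation 0.89). Without the pairing, 3 samples against 3 called 1 gene and 0 chains. The cause was not tested.

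Chains with a mean below 0 numbered 20 to 30 over the alternatives (30 of 44 with no filter) and 20 to 23 with a couple left out. The median of the chains lay between -0.18 and -0.06, Col6a1 minus Col6a3 between -1.64 and -1.23, and Col6a2 minus Col6a3 between -1.44 and -0.67. Of the 30 chains, 18 never changed sign.

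Signs reversed for Sec23a (0.032), Lum (0.027) and P4ha3 (-0.11) in the scanner software's ratio and in the deposited table, for Lum (0.0094) with median centring and for Col4a4 (0.021) with all probes averaged. With tamoxifen in Cy5 alone they reversed for Col15a1 (-0.0013), Col4a4 (0.27), Col5a2 (0.053), Col6a3 (-0.13), Col9a2 (0.0091), Sec23a (0.045), Lum (0.16) and P4ha3 (-0.062). With tamoxifen in Cy3 alone they reversed for Col2a1 (0.054) and Mmp13 (0.022).

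Leaving out a couple gave ranges across 0 for Col10a1 -0.36 to 0.10, Col11a2 -0.15 to 0.037, Col4a3 -0.37 to 0.33, Col4a4 -0.34 to 0.35, Col6a3 -0.0016 to 0.14, Col8a1 -0.061 to 0.38, Col2a1 -0.25 to 0.032, Mmp13 -0.10 to 0.11, Col13a1 -0.087 to 0.10, Col18a1 -0.66 to 0.23, Sec23a -0.052 to 0.073 and Lum -0.13 to 0.23.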
